A study of Mus musculus with 24 samples.

Results

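Serotonin receptors are the membrane proteins through which serotonin, released in the hippocampus by fibres of the raphe nuclei, acts on its target cells. Transcripts of 9 of these receptors were followed: Htr1a, Htr1b, Htr2a, Htr2c, Htr3a, Htr4, Htr5a, Htr6 and Htr7. They were chosen by name from a table of 33902 symbols and not by a cut on their values, though with earlier results of these data known. The table came from single-nucleus RNA sequencing (snRNA-seq) of microdissected ventral hippocampus from adult male mice of the inbred strains C57BL/6J (B6) and DBA/2J (D2), aged 10 to 16 weeks, for which the labels give no engineered allele or treatment. Each strain had 2 libraries, numbered 2 and 3 in the table, each from nuclei pooled from about 2 animals and sorted with a NeuN antibody to enrich for neurons. Counts had been summed over the nuclei of each of 17 cell types in each library, and 4 further libraries, 2 per strain, gave chromatin accessibility (snATAC-seq) in 15 of those types. Because the nuclei were pooled before sequencing, the spread between libraries is that between pools and not between single animals.

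All members but Htr3a encode receptors coupled to G proteins. Receptors coupled to Gi/o (Htr1a, Htr1b, Htr5a) lower cyclic AMP and dampen firing or release, those coupled to Gq (Htr2a, Htr2c) raise intracellular calcium through phospholipase C, and those coupled to Gs (Htr4, Htr6, Htr7) raise cyclic AMP. Htr3a encodes a subunit of a cation channel that serotonin opens directly, and in the forebrain this subunit is a classical mark of interneurons that arise from the caudal ganglionic eminence.

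Promoter sequences from RefSeq on GRCm38.p6 (250 bases before to 50 bases after the start) matched 7 of the 9 members, with no entry for Htr3a and Htr4. Sequences of 3 members are shown because each lies inside a snATAC-seq peak whose accessibility across cell types is set beside the transcript further on, and because they span the range of CpG content. Capitals mark every CpG, the dinucleotide at which most DNA methylation of mammals lies. The Htr2a window lies at chr14:74640624-74640923 on the plus strand, that of Htr2c at chrX:146962263-146962562 on the plus strand and that of Htr7 at chr19:36057311-36057610 on the minus strand.
Htr2a: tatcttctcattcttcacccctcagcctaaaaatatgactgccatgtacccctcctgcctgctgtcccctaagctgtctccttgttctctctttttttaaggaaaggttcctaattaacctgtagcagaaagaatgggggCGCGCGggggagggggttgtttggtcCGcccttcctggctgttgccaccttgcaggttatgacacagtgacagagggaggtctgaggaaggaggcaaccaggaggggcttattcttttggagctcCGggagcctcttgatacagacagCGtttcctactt
Htr2c: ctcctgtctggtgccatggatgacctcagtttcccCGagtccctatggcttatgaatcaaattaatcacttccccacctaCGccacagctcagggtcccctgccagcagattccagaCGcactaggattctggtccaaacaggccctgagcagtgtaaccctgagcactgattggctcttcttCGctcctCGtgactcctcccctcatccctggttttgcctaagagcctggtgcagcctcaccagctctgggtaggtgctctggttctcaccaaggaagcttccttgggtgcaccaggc
Htr7: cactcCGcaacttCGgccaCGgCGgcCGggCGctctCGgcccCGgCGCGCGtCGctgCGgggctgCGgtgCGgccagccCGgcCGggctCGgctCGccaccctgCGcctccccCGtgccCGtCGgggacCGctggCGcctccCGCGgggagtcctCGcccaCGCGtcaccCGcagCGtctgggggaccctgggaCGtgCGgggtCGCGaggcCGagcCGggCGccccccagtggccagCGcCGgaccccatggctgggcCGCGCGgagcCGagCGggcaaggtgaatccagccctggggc

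The Htr7 window held 46 CpGs, more than 98.4% of the 32851 RefSeq promoters, whose median was 7. Htr2a held 6 and Htr2c held 5, near that median. Among the others, Htr1a held 7, Htr1b 11 and Htr5a 14, while the 2 annotated starts of Htr6 held 29 and 10. The GC box GGGCGG or its complement CCGCCC, present in 35.7% of all promoters, occurred once in Htr2a and Htr1a and 3 times in the CpG-richer Htr6 window. The core of the cyclic AMP response element, TGACG or CGTCA (20.8% of promoters), occurred once in Htr7, and TATAAA or TTTATA (13.6%) in none of the members. These letters describe the windows and do not show binding.

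The 4 snRNA-seq libraries held between 43048686 and 56452272 counts from 6312 to 8707 nuclei. A single cell type in a single library held between 139713 counts (CR-CR) and 11352265 counts (Exc-DG). Marker genes fitted the labels for dentate granule, CA1, CA3, MGE, CGE, Cajal-Retzius, astrocyte, oligodendrocyte precursor, microglia and vascular lists, whose summed level was highest in the cell type of that name. The Lamp5 list (Lamp5, Ndnf) was highest in CR-CR, with Inh-Lamp5 next, and no list was set for Exc-ENT, Exc-Gpc6 and Exc-Cdh12. Tph2 and Slc6a4, which define the serotonin neurons themselves, totalled 66 and 42 counts over all libraries, and Fev was not in the table. Within a strain the libraries differed by more than sampling noise in every cell type (chi-square per degree of freedom 1.46 to 4.95).

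Levels are given as CPM, the counts of a receptor per 1000000 counts of the scaled total of a cell type in a library. In such sums, fewer nuclei expressing a receptor and less RNA per nucleus cannot be told apart. Transcripts differ in length and in retained introns, so levels were compared between cell types and not between receptors. Cell types had been named by clustering the same nuclei on their transcripts, so the differences between them are a description with no test.

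Among the Gi/o-coupled receptors, Htr1a, the inhibitory receptor of pyramidal and granule cells, was sparse in every cell type, with 647 counts in all. Its level was highest in Exc-DG, where the B6 libraries read 6.13 and 6.24 CPM and the D2 libraries 5.93 and 6.08 CPM. Types are ordered here by their mean log2(CPM + 1). The lowest Exc-DG library lay above the highest library of Exc-CA1-Camk2d (mean 5.26 CPM), but not above Exc-Cdh12, whose libraries of 7, 2, 5 and 3 counts ranged from 1.91 to 13.7 CPM (mean 5.81 CPM). From Exc-CA1-Camk2d down each type overlapped its neighbour. Counted per nucleus instead, Exc-CA1-Camk2d came out highest.

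Htr1b, a receptor of axon terminals that holds back transmitter release, was highest in Exc-Cdh12, with 15.6 and 18.1 CPM in B6 and 16.9 and 17.9 CPM in D2. Exc-ENT followed at a mean of 14.9 CPM, and the ranges of these neighbours overlapped. Both lay clear of Exc-CA1-Fras1 (8.68 CPM), Exc-CA1-Camk2d (7.41 CPM) and Inh-CGE (7.22 CPM), while Exc-DG and Exc-CA3 were lowest at 0.426 and 0.283 CPM. Htr1b overlaps the antisense gene D430036J16Rik over 2278 bp (GRCm38, chromosome 9), which had 544 counts of its own in B6 and 491 in D2. The strand setting of the counting is not given in the sources used here, and without strand the reads of such a pair cannot be told apart.

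Htr5a had 512 counts. Its highest means were 6.03 CPM in Inh-Lamp5, 5.36 CPM in Inh-CGE and 5.26 CPM in Exc-Cdh12, every type overlapped the next in order, and the top type changed to Exc-Cdh12 with the D2 libraries alone or without B6 library 2.

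Of the Gq-coupled receptors, Htr2a, the receptor at which classical psychedelics act, was highest in the inhibitory types. Its libraries in Inh-Lamp5 read 77.5 and 58.5 CPM in B6 and 43.7 and 50.2 CPM in D2. Inh-MGE (42.9 CPM), Inh-CGE (32.9 CPM), Exc-ENT (22.4 CPM) and Exc-CA3 (17.8 CPM) came next, each overlapping its neighbour, and Exc-CA3 then stood clear of the CA1 types. Exc-DG held 1.17 CPM and Exc-Cdh12 0.669 CPM, and among non-neuronal types NN-OPC was highest at 5.07 CPM.

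Htr2c, long known for its abundance in the choroid plexus and for the editing of its RNA, was present in all 17 types, with 19624 counts. Inh-CGE was highest, with libraries at 445 and 305 CPM in B6 and at 428 and 301 CPM in D2, so that the strains overlapped fully. Exc-ENT (315 CPM), Exc-Cdh12 (245 CPM), Exc-CA3 (204 CPM) and Inh-Lamp5 (148 CPM) followed, each overlapping the next. The lowest mean of any type was that of Exc-DG at 5.85 CPM, below every glial type. In NN-VLMC, which gave the highest non-neuronal level, Htr2c ranged from 13.2 to 30.9 CPM. There the choroid plexus markers (Ttr, Folr1, Clic6, Kl), all 4 of them in the table, summed to between 72.6 and 92.7 CPM in B6 and between 108 and 252 CPM in D2, with Folr1 at 2 counts in all and Clic6 at 14. Their part in the Htr2c level was not tested.

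Htr3a was the member most concentrated in a single type. Of its 510 counts, 432 (84.7%) fell in Inh-CGE, where the B6 libraries read 61.3 and 57.4 CPM and the D2 libraries 63.0 and 48.0 CPM. No library of another type exceeded 10.9 CPM, a value that rested on 2 counts in CR-CR, and the mean of Inh-MGE was 1.39 CPM. No count was found in NN-MGC, where 3 counts in a library would have been at most 5.69 CPM.

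The Gs-coupled Htr4, a receptor that excites principal cells, had 24610 counts, of which 40.9% came from Exc-DG. Its Exc-DG libraries read 293 and 273 CPM in B6 and 292 and 275 CPM in D2. Exc-CA3 (207 CPM) lay below all of them and above Exc-CA1-Galntl6 (128 CPM) and Exc-CA1-Fras1 (126 CPM), which overlapped each other. Exc-DG was thus at the top of the order for Htr4 and at the bottom for Htr2c, and Exc-Cdh12 was the lowest excitatory type for Htr4 at 18.0 CPM. Counted per nucleus, Exc-CA3 took the place of Exc-DG.

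Htr6 was the sparsest receptor, with 332 counts and no library above 5.07 CPM. Exc-CA3 and Exc-CA1-Galntl6 tied at 2.68 CPM, Inh-CGE, Exc-Gpc6 and Exc-ENT overlapped them, and the top type moved with most choices of libraries, so no order can be read from it. Htr7, which shifts neuronal excitability through cyclic AMP, was clearly graded. Its Inh-Lamp5 libraries, at 171 and 155 CPM in B6 and 128 and 94.0 CPM in D2, all lay above Inh-CGE (58.7 CPM) and Inh-MGE (53.1 CPM), which overlapped each other. Exc-Gpc6 (39.5 CPM), Exc-CA3 (32.1 CPM) and Exc-CA1-Camk2d (24.0 CPM) formed the next group, and Exc-DG was lowest of the neurons outside CR-CR at 1.43 CPM.

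**Figure D1:**
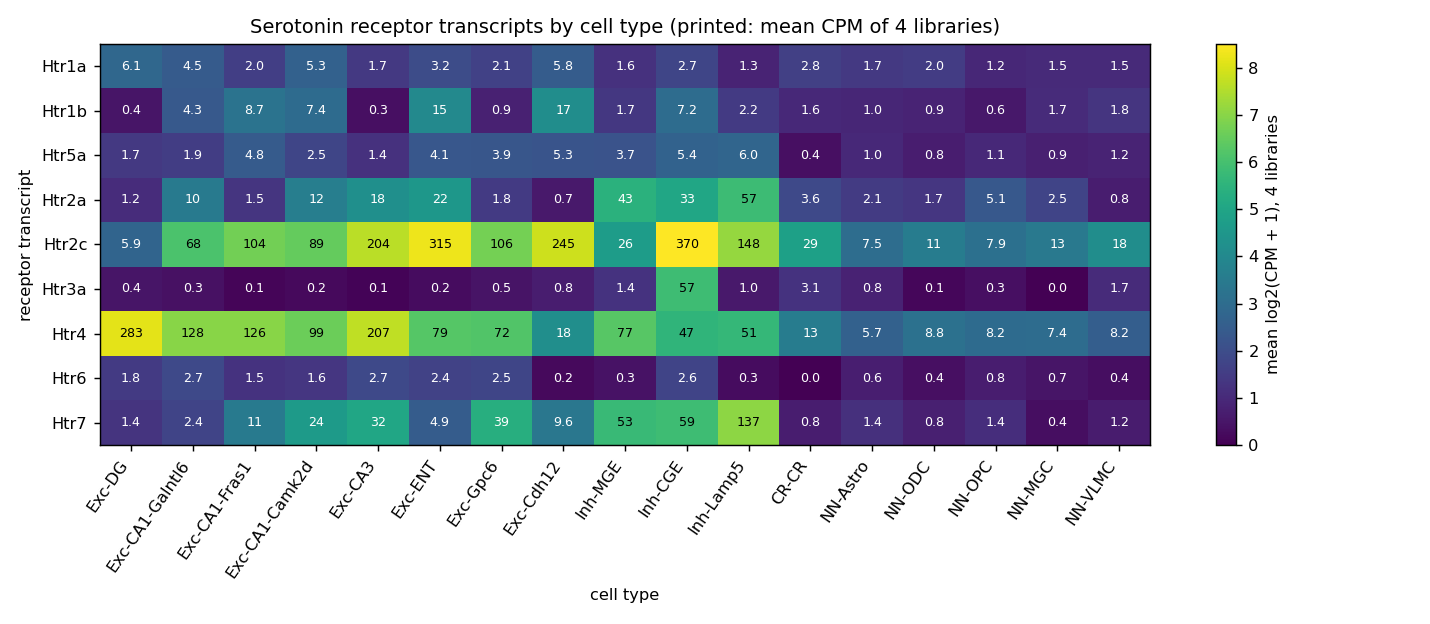
Transcript level of the 9 serotonin receptors (vertical axis) in 17 cell types (horizontal axis). Colour gives the mean log2(CPM + 1) and the printed number the mean CPM of 4 libraries. Htr3a is high only in Inh-CGE among the types shown, Htr4 peaks in Exc-DG at 283 CPM, where Htr2c is at 5.85 CPM, and Htr2a and Htr7 are highest in Inh-Lamp5.

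Strain was compared within each cell type to ask whether B6 and D2 differ in receptor transcripts. Of the 153 pairs of receptor and cell type, 69 had enough counts to be tested, and 12 of these passed an adjusted p of 0.05 (edgeR quasi-likelihood test, Benjamini-Hochberg within the cell type), 5 of them higher and 7 lower in D2. This is 17.4% of the receptor tests, against 22.1% of all tests over the 17 types. The median log2 difference over the receptor tests was −0.03, beside medians over all symbols of 0.01 to 0.06 by cell type. The calls involved 6 receptors (Htr1b, Htr2a, Htr2c, Htr4, Htr6, Htr7) and 7 cell types. In each of the 12 the libraries of the strains did not overlap, which adds nothing to a call made on those same values. With 2 libraries per strain, unchanged values stand apart with a probability of 0.33. Libraries also did not overlap in pairs that were not called, such as Htr1a in Exc-DG (adjusted p = 0.902, edgeR). Some 8204 symbols had counts in D2 only and 960 in B6 only, and with tests limited to symbols counted in both strains 8 of the 12 receptor calls remained, against a background of 14.4%. The 4 lost (Htr1b in Exc-CA1-Camk2d, Htr2c in Exc-CA3 and Exc-Cdh12, Htr6 in Exc-ENT) then had adjusted p between 0.0505 and 0.0618.

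The calls depended on the test and on single libraries. With DESeq2 the only calls were Htr4 and Htr2c in Exc-ENT, while the other 10 had adjusted p between 0.0586 and 0.612. DESeq2 also called fewer of all symbols in every type. The direction was the same in all 12 under each of 10 alternatives, and Htr4 in Exc-ENT was the only call that passed in all 10.

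Exc-ENT held 5 of the 12 calls, among 8 receptors tested, where 28.0% of all symbols were called. With symbols counted in both strains only, 4 of the 8 were called against 18.2%. Htr4 gave the smallest adjusted p of any receptor there, with 118 and 86.3 CPM in B6 and 59.2 and 54.0 CPM in D2. Every D2 library lay below both B6 libraries, a fall of 0.84 ± 0.12 (SE, derived from the F statistic) on the log2 scale (adjusted p = 5.38e-07, edgeR). Without any single library the log2 difference ranged from −1.05 to −0.60.

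Htr2a in Exc-ENT was lower in D2 as well, at 28.0 and 26.4 CPM in B6 and 16.0 and 19.2 CPM in D2. The log2 difference was −0.64 ± 0.18 (adjusted p = 0.00686, edgeR), and without D2 library 2 it was −0.50 (adjusted p = 0.119). Htr2c was lower by less, at 360 and 330 CPM in B6 and 285 and 283 CPM in D2 (log2 difference −0.27 ± 0.08, adjusted p = 0.0115, edgeR). That call was lost without B6 library 2 (adjusted p = 0.110), D2 library 2 (0.0511) or D2 library 3 (0.0633). The Gq-coupled pair and Htr4 were thus lower in D2 in this cell type.

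The other Gs-coupled receptors were higher in D2 in Exc-ENT, at low levels. Htr7 read 3.61 and 2.64 CPM in B6 and 5.32 and 8.06 CPM in D2 (log2 difference 1.07 ± 0.36, adjusted p = 0.0237, edgeR), a call that ended without B6 library 3 (adjusted p = 0.173) or D2 library 3 (0.343). Htr6 read 1.81 and 0.880 CPM in B6 and 3.39 and 3.72 CPM in D2, from 8, 4, 14 and 12 counts (log2 difference 1.39 ± 0.47, adjusted p = 0.0227, edgeR). It missed the threshold without B6 library 3 (adjusted p = 0.351), D2 library 2 (0.182) or D2 library 3 (0.251), and with the library number as a block (0.0579). Htr1a (log2 difference 0.47, adjusted p = 0.491), Htr1b (0.13, 0.732) and Htr5a (−0.49, 0.370) did not pass in Exc-ENT.

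Marker lists of other cell types also moved with strain in these nuclei. In Exc-ENT the oligodendrocyte precursor list (Pdgfra, Vcan, Cspg4, none at 0) summed to between 13.9 and 16.9 CPM in B6 and between 8.95 and 13.3 CPM in D2. The vascular and leptomeningeal list (Dcn, Slc6a13, Col1a2) summed to between 7.45 and 8.80 CPM in B6 and between 12.1 and 13.6 CPM in D2, with Slc6a13 and Col1a2 at 6 counts each. The CA3 list (Cdh24, Nptx1, Iyd) summed to between 67.8 and 74.7 CPM in B6 and between 86.5 and 91.2 CPM in D2 in Exc-ENT, with Iyd at 3 counts. The MGE list summed to between 20.8 and 22.0 CPM in B6 and between 17.1 and 18.1 CPM in D2, and the astrocyte list to between 22.8 and 27.7 CPM and between 18.3 and 22.0 CPM. The Cajal-Retzius list gave 14.3 to 15.4 CPM in B6 and 9.43 to 10.2 CPM in D2, and the dentate granule list 4.84 to 5.42 CPM and 1.69 to 4.03 CPM. The strains did not overlap for these 7 of the 14 lists of other cell types read in Exc-ENT. Of them 5 were higher in B6, as Htr4, Htr2a and Htr2c were, and 2 higher in D2. With 2 libraries per strain, an unchanged list stands apart with a probability of 0.33. How many of all symbols stood apart in Exc-ENT was not counted. As 28.0% of symbols were called there, that share may lie above 0.33, and 7 of 14 is not read as an excess.

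Such lists stood apart by strain in every other type with a receptor call too. They numbered 9 of 13 in Exc-CA1-Camk2d, 8 of 13 in Exc-CA3 and 7 of 13 in Inh-CGE. In Inh-Lamp5 and in Exc-CA1-Fras1 they numbered 5 of 13, and in Exc-Cdh12 4 of 14, near the share of 0.33 for unchanged lists. The share of all symbols standing apart was not counted in these types either, so none of these counts is read as an excess. Some counted lists were near 0, such as the serotonin neuron list in Exc-CA1-Camk2d (0.587 to 0.780 CPM in B6 and 0 to 0.257 CPM in D2). In Inh-CGE 4 of the 7 were higher in B6, among them the dentate granule list (109 to 146 CPM in B6 and 81.9 to 88.7 CPM in D2), and in Inh-Lamp5 2 of the 5, among them the oligodendrocyte precursor list (215 to 219 CPM in B6 and 156 to 162 CPM in D2). In Exc-CA1-Camk2d 6 of the 9 were higher in B6, in Exc-Cdh12 3 of the 4, in Exc-CA1-Fras1 3 of the 5 and in Exc-CA3 3 of the 8. The vascular and leptomeningeal list was higher in D2 in each of these types but Exc-Cdh12, and in Exc-CA1-Camk2d it reached 197 to 229 CPM in B6 and 259 to 299 CPM in D2. The dentate granule list holds Prox1, C1ql2 and Dsp, and the vascular and leptomeningeal list Dcn, Slc6a13 and Col1a2. These sums are not split by gene here. A list named after another type can hold genes that the labelled nuclei transcribe themselves, and whether this was so was not tested. The part of these transcripts in the receptor differences was not tested either.

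Htr2c changed in 5 types, in both directions. In Exc-Cdh12, where 8.44% of symbols were called, it read 392 and 239 CPM in B6 and 175 and 172 CPM in D2 (log2 difference −0.81 ± 0.21, adjusted p = 0.0261, edgeR). The B6 libraries lay far apart there, and without B6 library 2 the difference was −0.45 (adjusted p = 0.0603). In Exc-CA3 (background 32.1%) it was higher in D2, at 172 and 175 CPM in B6 and 180 and 289 CPM in D2 (log2 difference 0.43 ± 0.15, adjusted p = 0.0303, edgeR). That value rested on D2 library 3, without which the log2 difference was 0.06 (adjusted p = 0.802), and it also missed the threshold without B6 library 2 (0.0992) or B6 library 3 (0.0618).

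Htr2c in Inh-Lamp5 (background 12.1%) read 101 and 140 CPM in B6 and 209 and 140 CPM in D2 (log2 difference 0.55 ± 0.18, adjusted p = 0.0462, edgeR). The nearest libraries of the strains were equal to within rounding, and the call ended without B6 library 2 (adjusted p = 0.344) or D2 library 2 (0.686). In Exc-CA1-Fras1 (background 28.5%) Htr2c read 84.1 and 100 CPM in B6 and 121 and 112 CPM in D2 (log2 difference 0.35 ± 0.11, adjusted p = 0.0197, edgeR), again with no overlap. Without B6 library 2 (adjusted p = 0.223) or D2 library 2 (0.186) it did not pass. In its top type, Inh-CGE, the log2 difference was −0.03 (adjusted p = 0.942), and in the other types the log2 difference lay between −0.74 and 0.13 with none called, although Htr2c in Inh-MGE passed with the library number as a block (log2 difference −0.58, adjusted p = 0.0277, edgeR, against 0.196 without it).

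Htr7 was lower in D2 in Inh-CGE and Inh-Lamp5, and in Inh-MGE its log2 difference was 0.22 (adjusted p = 0.272). In Inh-CGE (background 15.1%) it read 69.8 and 71.5 CPM in B6 and 50.5 and 42.9 CPM in D2 (log2 difference −0.58 ± 0.16, adjusted p = 0.0198, edgeR). In Inh-Lamp5 it read 171 and 155 CPM in B6 and 128 and 94.0 CPM in D2 (log2 difference −0.53 ± 0.17, adjusted p = 0.0323, edgeR). Every D2 library was below every B6 library in each. The Inh-CGE call ended without B6 library 3 (log2 difference −0.57, adjusted p = 0.0740), D2 library 2 (−0.71, 0.237) or D2 library 3 (−0.47, 0.295). Without either D2 library no symbol at all was called in Inh-CGE by edgeR (2375 and 2049 at an unadjusted p under 0.05), so no call could have been kept there. The Inh-Lamp5 call ended without B6 library 2 (adjusted p = 0.122) or D2 library 3 (0.464). In Exc-CA1-Fras1 Htr7 stood just outside the threshold, at 8.58 and 7.41 CPM in B6 and 11.1 and 15.4 CPM in D2 (log2 difference 0.71, adjusted p = 0.0534, edgeR; 0.0457 with the library number as a block).

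Htr1b was called in Exc-CA1-Camk2d (background 19.4%), with 9.36 and 10.9 CPM in B6 and 4.63 and 4.79 CPM in D2. This was the largest fall of any receptor, at a log2 difference of −1.10 ± 0.31 (adjusted p = 0.0254, edgeR) from 24, 37, 18 and 16 counts. The call ended without B6 library 3 (adjusted p = 0.106), D2 library 2 (0.200) or D2 library 3 (0.196). In the other CA1 types Htr1b differed by −0.66 (Exc-CA1-Galntl6, adjusted p = 0.107) and −0.60 (Exc-CA1-Fras1, adjusted p = 0.132), neither past the threshold. In Exc-Cdh12, its top type, the log2 difference was 0.02 (adjusted p = 0.994).

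**Figure D2:**
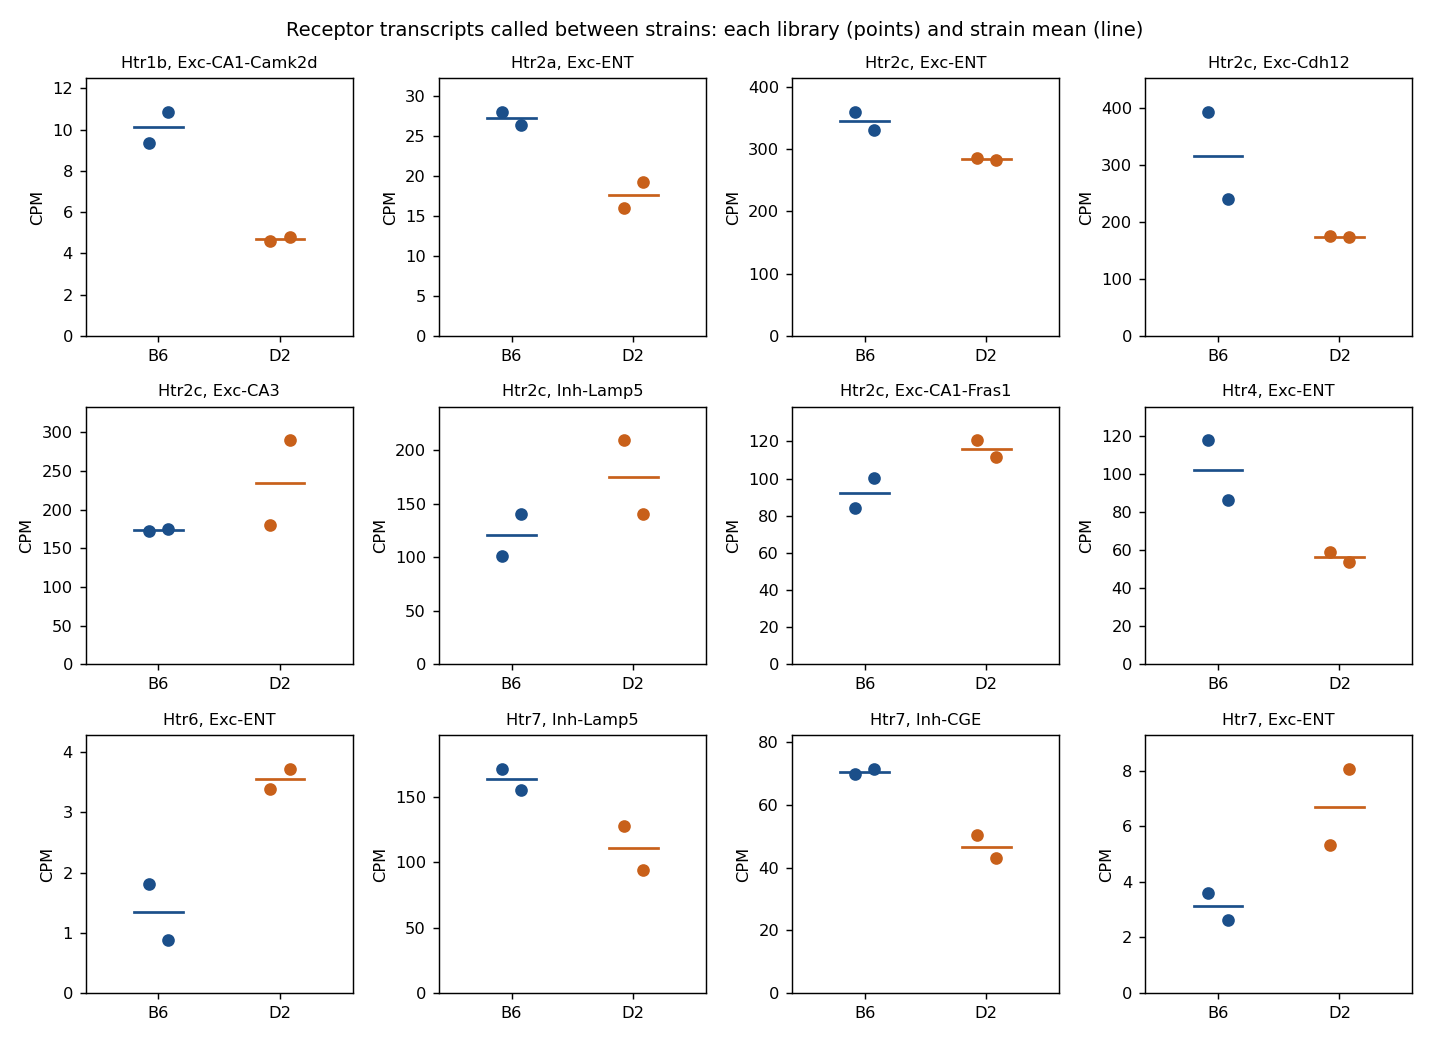
Level in CPM (vertical axis, from 0) of each library of B6 and D2 (points; lines are strain means, 2 libraries each) for the 12 pairs of receptor and cell type called between strains. The panels were chosen by the strain test, so the lack of overlap in each is no further support. In Exc-CA3 a single D2 library at 289 CPM sets the Htr2c difference.

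No receptor was called in Exc-DG (7 tested, with 36.0% of all symbols called), Exc-CA1-Galntl6 (8 tested, 35.0%), Inh-MGE (5 tested, 21.0%; 1, Htr2c, with the block) or Exc-Gpc6 (3 tested, 19.7%). The same held for NN-Astro, NN-ODC and NN-OPC with 2 receptors tested each (26.2%, 19.0% and 16.2% of symbols called) and for NN-MGC and CR-CR with Htr2c alone tested (10.4% and 4.26%), while in NN-VLMC no receptor could be tested.

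Htr1a, Htr3a and Htr5a were called in no type. Htr1a was tested in 4 types, and in Exc-DG the strains differed by −0.04 ± 0.21 on the log2 scale (adjusted p = 0.902, edgeR). Htr3a could be tested only in Inh-CGE, where the log2 difference was −0.08 ± 0.17 (adjusted p = 0.832, edgeR). Htr5a was tested in 5 types, with log2 differences from −0.58 to 0.36, and in its top type Inh-Lamp5 it was too sparse to test. Htr4 in Exc-DG, the best measured value of all with 2033 to 2846 counts per library, differed by 0.00 ± 0.07 (adjusted p = 0.985, edgeR). Htr4 in Inh-CGE fell just outside the threshold, at 54.0 and 56.9 CPM in B6 and 35.6 and 41.2 CPM in D2 (log2 difference −0.53, adjusted p = 0.0536, edgeR; 0.0469 with the library number as a block). Htr2a in Inh-Lamp5 had a log2 difference of −0.51 (adjusted p = 0.166), and Htr6 in Exc-CA3 of −0.17 (adjusted p = 0.795).

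A joint test of all 17 cell types asked whether the strain difference of a receptor depended on the cell type. It was passed by Htr7 (adjusted p = 0.00288, edgeR), Htr2c (0.0133) and Htr4 (0.0197), 3 of the 8 receptors tested, where 14.6% of 21050 symbols passed. Htr2a lay near the threshold (adjusted p = 0.0520), Htr1b (0.244), Htr3a (0.341), Htr1a (0.674) and Htr5a (1) did not pass, and Htr6 was too sparse for this fit. The test does not name the types that differ. Without D2 library 3, Htr7 (adjusted p = 0.245) and Htr4 (0.0858) no longer passed, and with no term per library Htr7 was the only receptor to pass.

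**Figure D3:**
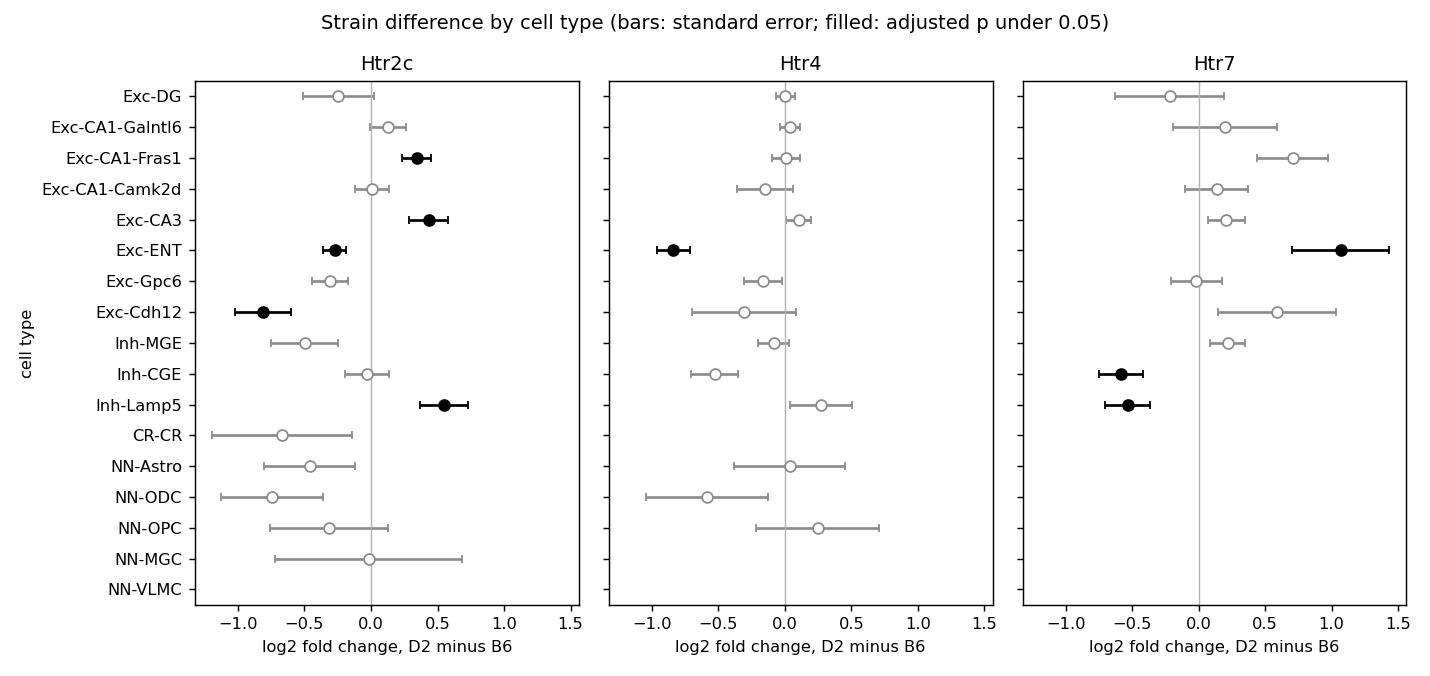
Log2 fold change, D2 minus B6 (horizontal axis), in each cell type tested (vertical axis) for Htr2c, Htr4 and Htr7. Bars are standard errors derived from the F statistic. Filled points have an adjusted p under 0.05 and types with no point were not tested. Htr2c lies on both sides of 0, Htr4 is near 0 in most excitatory types but at −0.84 in Exc-ENT, and Htr7 is at 1.07 in Exc-ENT and at −0.58 and −0.53 in Inh-CGE and Inh-Lamp5.

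Chromatin accessibility gave a readout that was not used to choose the receptors. Within 1 kb of an annotated start the 9 genes had 11 peaks, 2 each for Htr1a and Htr4 and 1 for each of the others. The Htr2a peak was most accessible in Inh-Lamp5 (20.3 CPM of the snATAC-seq counts, libraries from 15.2 to 24.2), Inh-MGE (18.6 CPM) and Inh-CGE (13.2 CPM), which are also the 3 types with the most transcript. The Htr7 peak, which covers the CpG-rich window printed above, was highest in the same 3 types (24.9 to 26.4 CPM) and lowest of the neurons in Exc-DG (5.31 CPM). The Htr2c peak was at 3.99 CPM in Exc-DG, its lowest value in a neuronal type, and highest in Exc-Gpc6 (15.6 CPM). Across the 15 types shared by the assays, Pearson's r of log2 accessibility and log2 transcript was 0.881 for Htr7, 0.877 for Htr2a, 0.868 for Htr1b, 0.839 for Htr2c and 0.820 for Htr5a. It was 0.747 and 0.749 for the Htr4 peaks, 0.531 for Htr6, and 0.440 and 0.506 for the Htr1a peaks. The cell types of the snATAC-seq nuclei had been transferred from the snRNA-seq nuclei, neuronal and glial types differ in depth, and cell types are not independent samples, so these values are descriptions.

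Htr3a had the lowest such value, 0.407. Its transcript was nearly confined to Inh-CGE, yet its promoter peak was at 13.2 CPM there (libraries from 8.11 to 17.8), at 15.6 CPM in Exc-Cdh12 and at 19.0 CPM in Exc-Gpc6. In those excitatory types the transcript was at 0.807 and 0.463 CPM. The peak lies at chr9:48910124-48911353 (mm10) over the start of Htr3a, and it was at 4.10 CPM or lower in Inh-MGE, Exc-CA3 and the CA1 types.

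**Figure D4:**
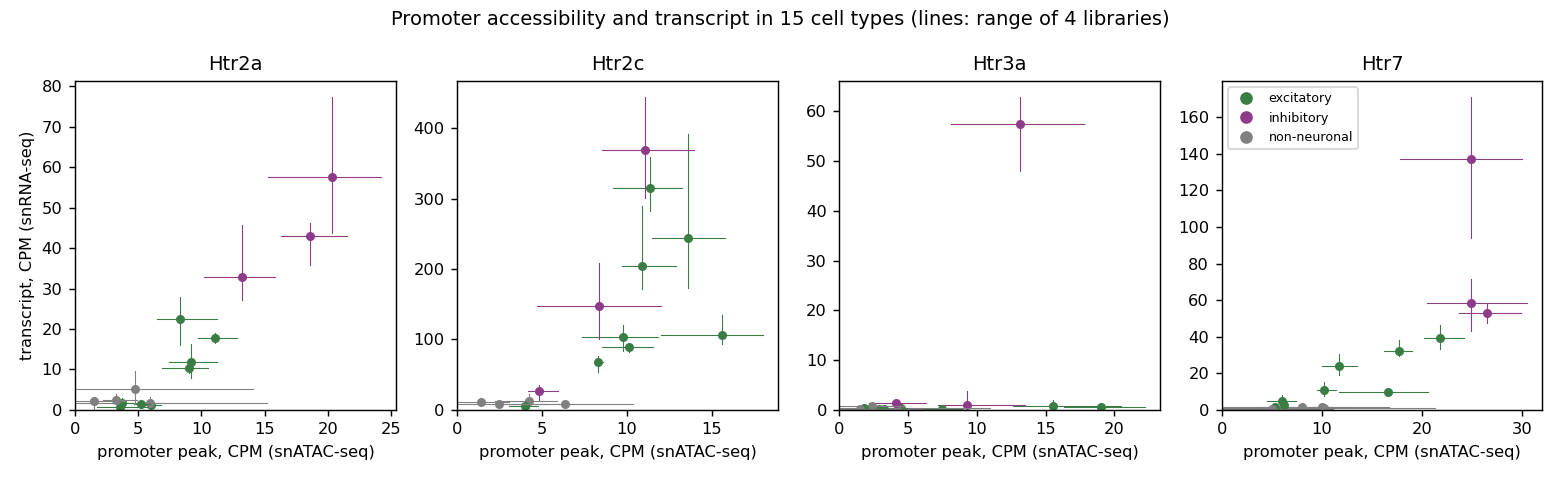
Transcript level (vertical axis, CPM of snRNA-seq) against accessibility of the promoter peak (horizontal axis, CPM of snATAC-seq) in 15 cell types for Htr2a, Htr2c, Htr3a and Htr7; points are means and lines the range of 4 libraries. For Htr2a and Htr7 the types with most accessibility have most transcript, while for Htr3a 2 excitatory types reach 15.6 and 19.0 CPM of accessibility with transcript under 1 CPM.

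Strain differed at 1 of the 133 receptor peak tests, where 2.73% of all peak tests were called over the 15 types. The call was the Htr3a peak in Inh-MGE, in which 0.87% of peaks were called. It read 6.28 and 5.41 CPM in B6 and 2.59 and 2.14 CPM in D2, from 30, 31, 19 and 14 counts. The strains did not overlap, and the log2 difference was −1.29 ± 0.33 (adjusted p = 0.0163, edgeR). Leaving out any library ended the call (adjusted p from 0.0768 to 0.241; other peaks, of Htr6 in Exc-DG and of Htr2a in Exc-CA1-Galntl6, passed without D2 library 2 and without D2 library 3), and the Htr3a transcript in Inh-MGE, at 1.29 to 1.48 CPM, was too sparse to test. For the 12 called transcripts, the promoter peaks of the same gene in the same type had log2 differences between −0.46 and 0.34, none called (adjusted p from 0.481 to 0.986). In Exc-ENT the Htr4 peak nearest to the start of the gene read 11.8 and 10.7 CPM in B6 and 10.5 and 14.5 CPM in D2, with the strains overlapping.

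Other genes of the serotonin system were read from the same fits. Of 37 such genes 32 could be tested in at least 1 type, and in 423 tests 14 were higher and 70 lower in D2, beside 12.9% higher and 9.25% lower over all tests. With symbols counted in both strains only, 12 were higher and 64 lower, beside 6.17% higher and 8.28% lower over all tests, so the background itself was then more often lower in D2. The receptor partners, which scaffold, phosphorylate or regulate receptors and their G proteins, had 5 higher and 37 lower of 147 tests, and the G proteins and effectors 2 higher and 19 lower of 182. A gene counts once for each type in which it was tested, and the types share the same 4 libraries, so these tests are not independent. Few genes gave most of the lower calls: Rgs7 gave 11, Mpdz 10, Grk3 8, and Htr2b and Plcb1 7 each. The counts therefore do not describe the serotonin system as a whole. Genes of synthesis, storage, uptake and breakdown had 3 higher and 6 lower of 57 tests. Tph1, Tph2 and Slc6a4 were too sparse to test, as were the receptors Htr1d and Htr3b.

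Among the partners, Rgs7, a regulator that speeds the shut-off of Gi/o signalling, was lower in D2 in 11 types (log2 differences from −1.55 to −0.30). In Exc-CA3 it read 730 and 716 CPM in B6 and 525 and 492 CPM in D2. Mpdz, a multi-PDZ scaffold that binds Htr2c, was lower in 10 types (−0.84 to −0.38), and Grk3, a kinase that desensitizes receptors, in 8 types (−1.63 to −0.24). Plcb1, the phospholipase downstream of Gq, was lower in 7 types (−1.12 to −0.26). With DESeq2 Grk3 was called in 2 types, and without B6 library 3 and without D2 library 3 it was called in 4 and in 2. Without D2 library 3 Mpdz was called in 5.

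Of the other receptors, Htr2b, also coupled to Gq, was lower in D2 in 7 types (log2 differences from −0.55 to −0.31). In Exc-CA3 it read 81.7 and 85.0 CPM in B6 and 56.5 and 58.6 CPM in D2. Htr2b lies within Psmd1 on the opposite strand, so its reads cannot be told apart from those of that gene if strand was not used. For Htr1f, library 2 read above library 3 in both strains in every type but CR-CR, Inh-MGE, NN-MGC and NN-VLMC. In Exc-CA3 libraries 2 and 3 read 161 and 112 CPM in B6 and 171 and 109 CPM in D2. In Exc-DG they read 62.9 and 36.4 CPM in B6 and 85.7 and 62.2 CPM in D2. What libraries of the same number share was not tested. Htr1f, coupled to Gi/o, was higher in D2 in 4 types and lower in 1 (−0.39 to 1.10), but was called in no type with DESeq2 or without B6 library 3, and in 11 without B6 library 2. Htr2b was called in 3 types with DESeq2 and in 4 without B6 library 3 or D2 library 2.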

How the data were processed

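Nuclei of the ventral hippocampus of B6 and D2 mice were profiled by snRNA-seq and snATAC-seq. The authors mapped reads with Cell Ranger 6.0.2 (introns retained) and Cell Ranger ATAC 2.0.0 to mm10 for B6 and to mm10 carrying the D2 variants for D2, removed low-quality nuclei and doublets, clustered the nuclei with Seurat 4.0.5 and transferred the cell types to the snATAC-seq nuclei. The gene annotation release and the strand setting are not given in the sources used here. The deposited values are raw counts, per symbol or per merged peak, added up per cell type and library. They were used as deposited, and the columns carry only strain and a library number. Methylation samples of the study were not analysed here. One marker list is not reported here.

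In each cell type, D2 was compared with B6 over all symbols with edgeR 4.0.16 in R 4.3.3 (TMM scaling, filterByExpr, quasi-likelihood F test, Benjamini-Hochberg within the type, threshold 0.05), and likewise over all peaks with at least 10 counts in the 4 libraries. Dependence on cell type was tested jointly with terms for library, cell type and cell type by strain. Each library was a pool of about 2 animals, treated as a biological replicate. edgeR draws the dispersion of each symbol toward that of the other symbols, so p-values do not measure its own 2 pools per strain alone. In the joint test library is a term, so the error there is what remains between types within libraries. An exact permutation test of 2 against 2 cannot go below 0.33, so none was run. CPM are counts per 1000000 of totals scaled by TMM within the type and between types. Depth per type and library ranged from 139713 to 11352265 snRNA-seq counts and from 278059 to 27815541 snATAC-seq counts. Coefficients of biological variation were 0.057 to 0.149. The standard errors (SE) are the absolute log2 difference divided by the square root of the F statistic, and not a separate estimate from the libraries. Each fit was also run on simulated counts for Exc-ENT, with Exc-DG and Inh-MGE added for the joint test. These had a fixed dispersion and changes only in well-counted symbols or peaks. They do not cover sparse receptors such as Htr6 or the more variable cell types.

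All 9 receptors were named. Values of all libraries are given in the type with the highest level and in up to 3 called types by mean level, and the remaining Htr2c calls were added after their values were seen. Of the other 37 serotonin genes, the 6 with the most called types were named, and for each receptor reaching 5 CPM the 3 symbols most alike in pattern. Marker lists were set beside the calls as counts of those that do not overlap between strains, leaving out lists that name the type itself. The receptors and gene lists were chosen with earlier results of these data known. Alternatives were DESeq2 1.42.0 with default parameters, RLE scaling, no filter, symbols counted in both strains, adjustment over all types, a block for the library number, and leaving out each library.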

Additional observations from a re-analysis of the deposited data

Results flagged for a closer look

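For Htr7, Htr2c and Htr4 the strain difference itself differed between cell types by the joint edgeR test of the cell type by strain terms. The adjusted p was 0.00288 for Htr7, 0.0133 for Htr2c and 0.0197 for Htr4, where 14.6% of the 21050 symbols tested passed. Htr7 was 2.10-fold higher in D2 in Exc-ENT (3.13 CPM in B6 and 6.69 CPM in D2, means of 2 libraries) and lower in Inh-CGE (70.6 CPM in B6 and 46.7 CPM in D2, log2 difference −0.58). Htr2c was 1.76-fold lower in D2 in Exc-Cdh12 and 1.46-fold higher in Inh-Lamp5. None of these pairs passed with DESeq2. There the adjusted p was 0.383 for Htr7 in Exc-ENT and 0.312 in Inh-CGE, and 0.0586 for Htr2c in Exc-Cdh12 and 0.612 in Inh-Lamp5. Htr4 was 1.79-fold lower in Exc-ENT, while its log2 difference in Exc-DG was 0.00. The joint test does not say which of these types differ from each other. Without D2 library 3 the adjusted p was 0.245 for Htr7 and 0.0858 for Htr4, and without a term per library it was 0.0553 for Htr2c and 0.0998 for Htr4.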

How the results depend on the processing

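The number of receptor calls was 12, and it was 2 with DESeq2, 13 with RLE scaling, 15 without the filter on low counts, 13 with adjustment over all types, 8 with symbols counted in both strains, and between 6 and 10 when a library was left out (7 without B6 library 2, 7 without D2 library 2, 6 without D2 library 3). The library numbers are shared between strains, and the deviations of same-numbered libraries correlated between −0.158 and 0.065. A correlation near 0 over many symbols cannot show that such libraries share nothing for a given symbol. Htr1f, for example, read higher in library 2 than in library 3 in both strains in most types. What they share beyond the number is not given in the labels and was not tested. With the library number as a replicate block there were 14 receptor calls, 11 of them among the 12 (Htr6 in Exc-ENT was lost, and Htr4 in Inh-CGE, Htr7 in Exc-CA1-Fras1 and Htr2c in Inh-MGE were gained), 86 calls of other serotonin genes and 1 of promoter peaks. In Inh-MGE, where the correlation was lowest, pairing the numbers crosswise, an alternative chosen after seeing the data, gave 4226 calls against 3173 without a block and 2981 with it, and 12 receptor calls as before. The calls of other serotonin genes were 84, with 37 under DESeq2 and between 53 and 87 with a library left out (53 without D2 library 3). Receptors passing the joint test were 3, with 1 when no term per library was used and between 2 and 4 with a library left out. The promoter peak call was 1, and between 0 and 1 with a library left out: 0 without either B6 library, and without either D2 library 1 call, which was not the Htr3a peak but the Htr6 peak in Exc-DG (without D2 library 2, adjusted p = 0.0466, edgeR) or the Htr2a peak in Exc-CA1-Galntl6 (without D2 library 3, 0.0295). The cell type with the highest level was the same for 7 to 9 of the 9 receptors under every alternative. Directions turned only where no call was made. With a library left out, Htr1b in Exc-Cdh12 ranged from −0.058 to 0.16 on the log2 scale (below 0 without B6 library 2 and, at −0.01, without D2 library 3), Htr2c in Inh-CGE from −0.31 to 0.27 (above 0 without B6 library 2 and, at 0.20, without D2 library 3), Htr3a in Inh-CGE from −0.30 to 0.10 (above 0 without D2 library 3), Htr4 in Exc-DG from −0.050 to 0.048 (below 0 without B6 library 3 and, at −0.04, without D2 library 2) and Htr6 in Exc-CA3 from −0.41 to 0.18 (above 0 without B6 library 2 and, at 0.07, without D2 library 2). Htr4 in Exc-DG had −0.0131 without the filter, −0.00983 with DESeq2 and −0.00161 with RLE scaling. The cause of these changes was not tested. Depth limits what can be tested of the sparse receptors: Htr6 had 332 counts in all, and 69 of 153 pairs of receptor and cell type could be tested.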

Other observations

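The symbols whose pattern was most like that of a receptor were found by Pearson's r of log2(CPM + 1), averaged over the 4 libraries, across the 17 cell types. These types share their libraries and were clustered on the same transcripts, so the values are descriptions. Htr3a was most like Tac2 (r = 0.899), Penk (0.886) and Vip (0.867), 3 peptide genes that were highest in Inh-CGE too. Htr7 was most like Fgf9 (0.908), Slitrk4 (0.902) and Unc5d (0.897), and Htr2a like Oxsr1 (0.892), Galntl6 (0.887) and Kcnc2 (0.878). Each of these 6 was highest in an inhibitory type. Htr4 was most like Gm41505 (0.945), the intracellular calcium channel Ryr2 (0.934) and Matk (0.931), which were highest in Exc-DG or Exc-CA3. Htr2c was most like Gm9866 (0.884), Fyb2 (0.863) and Snhg11 (0.859). Htr1b was most like D430036J16Rik (0.966), the antisense gene that overlaps it, then Gm26713 (0.939) and Mei4 (0.852). Htr1a was most like the potassium channel Kcnk9 (0.872), Cdon (0.858) and Olfm1 (0.821), and Htr5a like Tbc1d30 (0.924), Clstn3 (0.915) and Rhbdl1 (0.908).

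Among the receptors themselves, the most alike pair was Htr5a and Htr7 (r = 0.814), followed by Htr2c and Htr5a (0.735) and by Htr4 and Htr6 (0.726). Htr3a overlaps the antisense gene Gm32335 over 6770 bp, which had 127 counts in B6 and 224 in D2.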
